A study of Mus musculus with 7 samples.

Results

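The genes described here encode the proteins of the mitochondrial ribosome in T cells sorted from mouse spleen. They were taken by symbol: every gene whose symbol starts with Mrpl or Mrps followed by a digit, pseudogene symbols left out, that is listed in all 7 count matrices. This gave 77 genes, 48 with Mrpl and 29 with Mrps symbols, of 27514 genes shared by the matrices. One further gene, Mrpl58, carries that symbol only in the newer of the deposited gene references and is treated with the other proteins of this ribosome. The study's labels describe 10x Chromium 3′ single-cell libraries of TCRαβ+ T cells from 8-week-old male C57BL/6 mice, with no mutant or transgenic allele in any group. Activated double-negative T (DNT) cells lack both CD4 and CD8 and were made from naive DNT cells by 3 days of culture with anti-CD3 and anti-CD28 antibody plus IL-2 at 20 ng/ml (2 libraries). Naive DNT cells, sorted as CD3+ NK1.1- TCRαβ+ TCRγδ- CD4- CD8- and negative for the αGal-CD1d and LPC-CD1d tetramers, likewise have 2 libraries. The 3 further groups, CD4, CD8 and the TCRαβ+ gate without a CD4 or CD8 sort (TCRab), have a single library each and therefore no replicate check. The series' design text calls the DNT libraries biological replicates, and the number of animals behind each library is not stated. Culture and stimulation came together in the activated group and cannot be told apart.

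Mitochondria carry their own ribosome, which translates only the few messages of the mitochondrial genome, all of them for subunits of the respiratory chain and the ATP synthase. Its RNA comes from mitochondrial DNA, while its proteins are encoded in the nucleus, made in the cytosol and imported. The large subunit joins amino acids and holds the tunnel through which the new chain leaves, and the small subunit reads the message. Many of the proteins descend from bacterial ribosomal proteins, while others have no bacterial relative. By the unified nomenclature, 50 of the 77 genes encode large subunit proteins and 26 small subunit proteins, with 46 of bacterial families and 30 specific to mitochondria. The mitochondrion-specific class holds Mrps18b (mS40) although that protein is related to bacterial S18, so the classes are not a strict split by ancestry. The symbol is not a sure guide, since Mrps18a and Mrps30 encode large subunit proteins (mL66 and mL65) and Mrps36 is now placed with the 2-oxoglutarate dehydrogenase complex, so it is counted among the 77 but in neither subunit. T cells that leave rest are known to expand their mitochondria.

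The 77 genes lie on 17 chromosomes, so no single locus carries them. Promoter windows, from 250 bases before to 50 after the annotated start, were at hand from RefSeq (GRCm38.p6) for 68 of the 77. Sequences of 4 motifs known from promoters of nuclear genes for mitochondrial proteins or of growth genes were searched on both strands. The ETS motif CCGGAAG was present in 25 of the 68 (36.8%), against 21.4% of 9112 genes tested for expression and 12.9% of 17492 protein-coding genes. The NRF1 motif (GCGCA, any base, then GCGC) was present in 13 (19.1%), against 12.2% of genes tested and 7.17% of protein-coding genes. For the YY1 motif AANATGGCG the count was 10 (14.7%), against 6.31% and 3.64% in the same backgrounds. The E-box CACGTG was present in 5 (7.35%), against 11.9% and 8.91%. The ETS and YY1 motifs can share the letters AAG where they lie next to each other, and 43 of the 68 genes held at least 1 of the 4 motifs. A gene was counted if any of its windows held the motif. The 68 genes had 74 windows, the 9112 genes tested 11621 and the 17492 protein-coding genes 21263, so the length searched per gene was not equal. The 4 windows given first belong to the genes called in both fits described below. The last belongs to Mrpl9, whose level did not pass the test. They are from chr16:92058086-92058385 (plus strand, Mrps6), chr17:35916391-35916690 (minus strand, Mrps18b), chr5:96209865-96210164 (plus strand, Mrpl1), chr9:98601630-98601929 (minus strand, Mrps22) and chr3:94443086-94443385 (plus strand, Mrpl9). All are written 5′ to 3′ on the gene's strand, with capitals marking the motif found.
Mrps6: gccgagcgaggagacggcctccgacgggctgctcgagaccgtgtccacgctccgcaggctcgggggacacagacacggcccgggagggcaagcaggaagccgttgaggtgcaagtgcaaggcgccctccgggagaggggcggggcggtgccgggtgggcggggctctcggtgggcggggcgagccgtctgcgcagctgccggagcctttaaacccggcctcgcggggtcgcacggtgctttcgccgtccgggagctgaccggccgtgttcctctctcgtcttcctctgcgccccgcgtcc
Mrps18b: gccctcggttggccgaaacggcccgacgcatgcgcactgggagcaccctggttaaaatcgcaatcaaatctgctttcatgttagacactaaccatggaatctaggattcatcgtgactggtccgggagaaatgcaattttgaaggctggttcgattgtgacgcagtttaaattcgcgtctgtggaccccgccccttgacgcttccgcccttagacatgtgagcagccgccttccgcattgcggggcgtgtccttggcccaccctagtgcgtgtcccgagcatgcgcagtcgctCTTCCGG
Mrpl1: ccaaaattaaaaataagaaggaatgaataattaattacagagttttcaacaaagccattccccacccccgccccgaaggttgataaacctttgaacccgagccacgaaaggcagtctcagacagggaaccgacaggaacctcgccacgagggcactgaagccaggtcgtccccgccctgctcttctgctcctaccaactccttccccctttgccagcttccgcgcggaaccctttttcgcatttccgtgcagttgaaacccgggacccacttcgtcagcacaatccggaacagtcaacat
Mrps22: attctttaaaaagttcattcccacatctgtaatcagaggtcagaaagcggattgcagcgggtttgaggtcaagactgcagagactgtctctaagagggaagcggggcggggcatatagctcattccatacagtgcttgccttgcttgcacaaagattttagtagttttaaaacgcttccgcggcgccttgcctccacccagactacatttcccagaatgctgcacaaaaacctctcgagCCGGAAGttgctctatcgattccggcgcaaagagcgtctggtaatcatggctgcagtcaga
Mrpl9: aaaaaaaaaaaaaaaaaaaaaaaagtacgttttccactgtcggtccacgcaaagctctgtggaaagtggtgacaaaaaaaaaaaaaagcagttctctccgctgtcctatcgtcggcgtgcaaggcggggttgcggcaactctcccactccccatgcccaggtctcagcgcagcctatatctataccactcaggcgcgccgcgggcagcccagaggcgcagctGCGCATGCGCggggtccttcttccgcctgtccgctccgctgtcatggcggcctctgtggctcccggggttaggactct
The Mrps22 window held the ETS motif from 11 to 5 bases before the start, and that of Mrps18b held it on the other strand within the last bases of the window. Mrpl9 held the NRF1 motif, which reads the same on both strands. The windows of Mrpl24 and Mrpl23, which also did not pass the test and are not printed, held none of the 4 motifs. The Mrps6 window, of which 73.7% were G or C, held none of the 4 motifs, and neither did that of Mrpl1. A match here is a run of letters and not a measured binding site.

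The libraries differ in ways that bear on every value below. The 7 libraries kept 1791 and 1549 activated DNT cells, 4049 and 6728 naive DNT cells, 5035 CD4, 4655 CD8 and 4294 TCRab cells. They held 34521240 and 25347948 UMIs (unique molecules counted) in activated DNT, 17358231 and 53653855 in naive DNT, and 18373324 to 24115584 in the other 3. The median cell had 15795 and 9386 UMIs in the activated libraries, against 4119 and 7556 in the naive ones. Kit v3 was used for the second replicate of both DNT groups, and kit v2 for the other 5 libraries. T cell markers (Cd3d, Cd3e, Cd3g, Cd28 and Lck) were detected in all 7 libraries, at 1809 and 2107 CPM summed (UMIs of a gene per 1000000 UMIs of its library) in activated DNT and 3390 and 3073 CPM in naive DNT. Cd4 reached 137 CPM in the CD4 library and 0 in the CD8 library, whose Cd8a and Cd8b1 summed to 1798 CPM. Red cell genes (5 genes) summed to 0 and 0.436 CPM in activated DNT, against 3697 and 819 CPM in naive DNT, and B cell genes to 9.17 and 12.2 CPM, against 25.8 and 87.3 CPM. Between 59.2% and 80.4% of the cells of a library held at least 1 UMI of a B, plasma, myeloid, red cell or NK marker. The myeloid marker Cst3 had 158.6 and 158.0 CPM in activated DNT, nearly all of the myeloid sums of 158.8 and 158.9 CPM. In naive DNT it had 170 and 114 CPM, of sums of 493 and 182 CPM. A UMI of these markers thus does not by itself place a cell in another lineage. Any 2 libraries shared at most 36 barcodes.

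Activated DNT cells devoted about 2-fold more of their captured messages to the mitochondrial ribosome. The 77 genes together gave 10034 and 7888 CPM in activated DNT libraries, against 4618 and 4213 CPM in naive DNT libraries. This is 1.003% and 0.789% of all UMIs, against 0.462% and 0.421%, and the 2 ranges did not overlap. The summed level was 2.17-fold higher within kit v2 and 1.87-fold higher within kit v3, a mean of 2.02-fold. The unstimulated CD4, CD8 and TCRab libraries, at 4793, 4636 and 5018 CPM, lay near the naive DNT libraries. In the cells without a UMI of another lineage the sums were 8617 and 5844 CPM in activated DNT, against 4533 and 4050.1 CPM in naive DNT, and the part of other cells in the values was not tested further. With 2 libraries against 2 no exact permutation test can pass 0.05, so the sum is given without a test. Large and small subunit genes moved in step: the ratio of their sums was 1.99 and 1.95 in activated DNT, 2.03 and 2.05 in naive DNT, and 1.95 to 2.04 in the other 3 libraries. The genes of the cytosolic ribosome took 40.3% and 31.6% of UMIs in activated DNT and 43.5% and 33.4% in naive DNT, so their share differed more between kits than between groups.

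**Figure D1:**
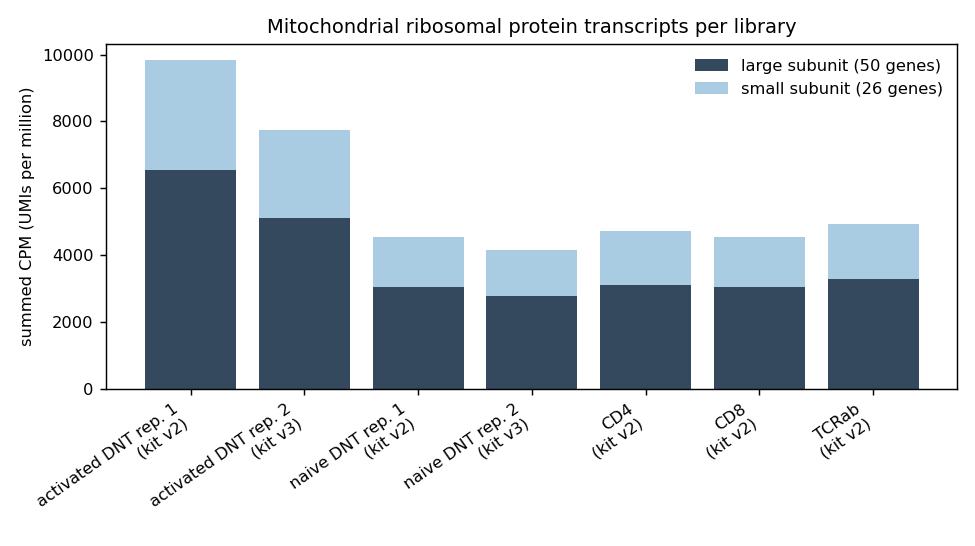
Summed CPM of the 50 large subunit and 26 small subunit genes in each of the 7 libraries, as stacked bars. Both activated DNT bars stand clear of the 5 unstimulated libraries, and the division between the subunits is nearly the same in every library.

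Gene by gene, the rise covered most of the 77. All 77 passed the filter on low counts, among 12325 genes tested. In edgeR's quasi-likelihood test with the replicate number (and so the kit) as a block, 57 of the 77 were higher in activated DNT at a Benjamini-Hochberg adjusted p under 0.05, where 19.9% of all genes tested were higher. None of the 77 was lower in that test, where 19.8% of all genes tested were lower, and none was lower at an unadjusted p under 0.05 or in DESeq2. Of the 57, 31 were at least 2-fold higher, a bar passed by 14.5% of all genes tested. The fitted log2 fold changes ran between −0.24 for Mrpl24 and 2.40 for Mrps6, with a median of 0.92, against −0.04 over all genes tested, and 75 of the 77 were above 0. Without the test, both activated CPM values lay above both naive values for 74 of the 77 genes (30.8% of all genes tested), and above all 5 unstimulated libraries for 71 of the 77 (28.3%).

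The number of calls rests on the block. Same-numbered libraries shared a kit and deviated together from their group means. The correlation was r = 0.63 across the 12325 genes and 0.47 across the 77, and genes are not independent replicates. Without the block, 4 of the 77 genes were called higher (5.19%), which is no more than the 5.32% of all genes tested, and 0 lower (5.06% of all genes tested). At an unadjusted p under 0.05, 0 were lower in that fit as well, and 25 were higher. The median fold change hardly moved, at 0.94 on the log2 scale without the block. The block fit had 1 residual degree of freedom and the other fit 2, so both take most of their estimate of spread from other genes. Fewer were called in subsets of cells: 32 of 76 tested were higher after thinning every cell to 1500 UMIs, 28 of 76 in cells without any mitosis UMI, and 16 of 76 in cells without a UMI of another lineage. In those 3 sets 12.8%, 9.43% and 8.60% of all genes tested were higher.

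**Figure D2:**
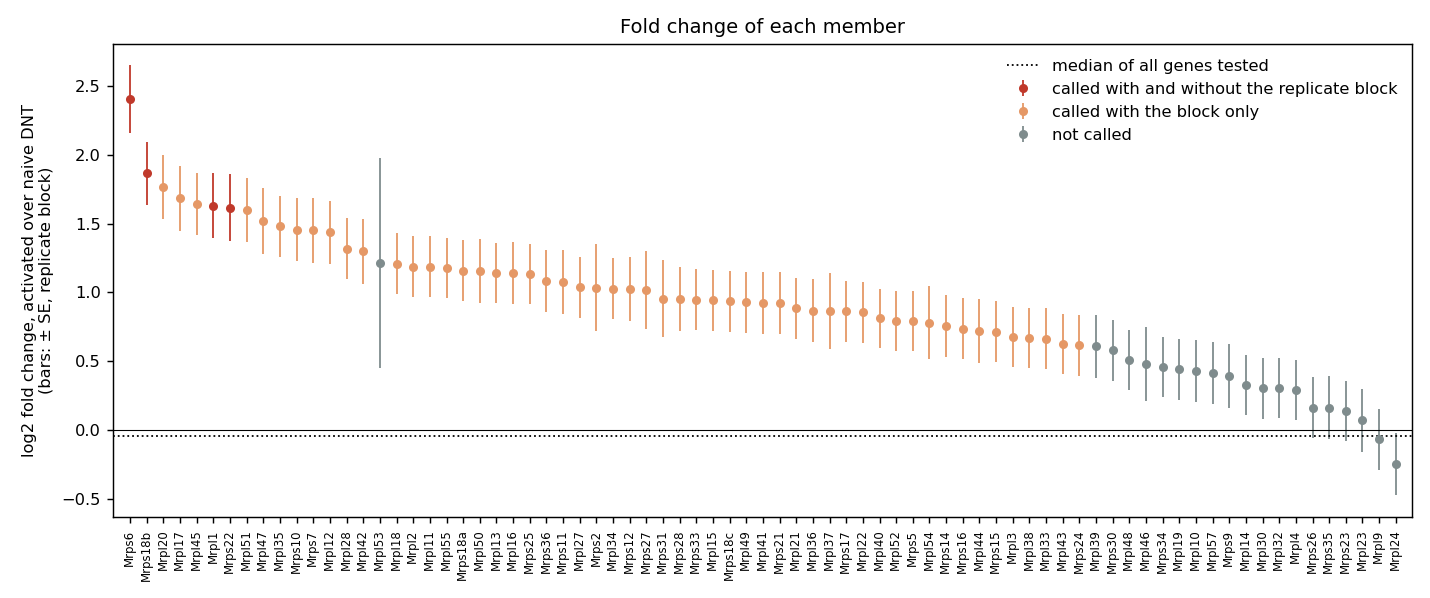
Log2 fold change of each of the 77 genes in activated against naive DNT from the block fit, with its standard error as bars, ordered by size; colours show genes called in both fits, with the block only, or not called, and the dotted line is the median of all genes tested. Of the 77 points 75 lie above 0, with Mrps6 at 2.40 on the left and Mrpl24 at −0.24 on the right.

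Taken by place in the ribosome, 35 of 50 large subunit genes rose with the block (median log2 fold change 0.88) and 21 of 26 small subunit genes (median 0.94). Of all genes tested, 19.9% were higher in that fit. By origin, 36 of 46 genes of bacterial families rose (median 0.94) and 20 of 30 mitochondrion-specific genes (median 0.84). The small subunit genes of bacterial families had 15 of 16 called, the mitochondrion-specific ones 6 of 10, while in the large subunit the counts were 21 of 30 and 14 of 20. Without the block, 1 of 50 large and 3 of 26 small subunit genes were called higher. By origin the counts without the block were 2 of 46 and 2 of 30, against 5.32% of all genes tested. No group had a member called lower, and the differences between these groups were not tested.

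The genes called with and without the block were 4, where 5.29% of all genes tested were called higher in both. Mrps6 encodes bS6m, a small subunit protein of the bacterial S6 family, and lies at chr16:92058270-92112227 (GRCm38). It had 252 and 215 CPM in activated DNT, against 35.7 and 44.9 CPM in naive DNT. The groups lay far apart, and CD4, CD8 and TCRab cells had 33.8, 23.1 and 32.4 CPM. Its log2 fold change was 2.40 ± 0.24 (SE; 5.29-fold), with an edgeR adjusted p of 4.78e-05 with the block and 0.0235 without it. Mrps6 supplied 2.52% and 2.72% of the ribosome's UMIs in activated DNT, against 0.773% and 1.07% in naive DNT. Its exons share 159 bases with those of Slc5a3, a myo-inositol transporter gene on the same strand. Slc5a3 itself had 19.9 and 37.3 CPM in activated DNT, against 2.72 and 8.30 CPM in naive DNT. Its log2 fold change was 2.35 ± 0.28, and how reads of the shared bases were treated was not tested.

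Mrps18b encodes mS40, a small subunit protein related to bacterial S18, from chr17:35910379-35916389. It had 137 and 134 CPM in activated DNT, against 29.4 and 38.8 CPM in naive DNT. The activated libraries were nearly equal and well above both naive ones, and the log2 fold change was 1.86 ± 0.23 (edgeR adjusted p 0.000157 with the block and 0.0339 without). Mrpl1 encodes uL1m, the protein of the stalk beside the site where spent transfer RNA leaves, from chr5:96209493-96266727. It had 41.9 and 54.9 CPM in activated DNT, against 13.0 and 15.3 CPM in naive DNT (log2 fold change 1.63 ± 0.24; edgeR adjusted p 0.000429 and 0.0394). Mrps22 encodes mS22, a mitochondrion-specific small subunit protein, from chr9:98588730-98601660. Its values were 31.7 and 41.4 CPM in activated DNT, against 10.2 and 11.4 CPM in naive DNT (log2 fold change 1.62 ± 0.24; edgeR adjusted p 0.000524 and 0.0409). In Mrpl1 and Mrps22 the kit v3 library was the higher activated one, unlike in the sum of all 77. All 4 stayed called in the thinned cells, in cells without mitosis UMIs and in cells without other-lineage UMIs. Leaving out 1 library without the block ended the call of Mrps6 when a naive library was left out (adjusted p 0.0948 and 0.104) and of the other 3 genes in all but the fit without activated replicate 2.

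Among the large subunit genes, several of bacterial families were among the furthest apart. Mrpl20, whose bacterial relative binds the ribosomal RNA early in assembly, had 381 and 250 CPM in activated DNT, against 90.1 and 75.6 CPM in naive DNT (log2 fold change 1.77 ± 0.23; edgeR adjusted p 0.000225, and 0.0874 without the block). Mrpl17 had 195 and 127 CPM, against 45.7 and 43.5 CPM (1.68 ± 0.24). Mrpl35, with 139 and 132 CPM against 44.2 and 44.1 CPM, was more even between the replicates of each group (1.48 ± 0.22). Mrpl28 followed, with 128 and 99.9 CPM in activated DNT, against 47.1 and 36.0 CPM in naive DNT (1.32 ± 0.22). All 4 were called with the block, and none of them without it.

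The flexible stalk that recruits translation factors is built on Mrpl10 and Mrpl11 and carries copies of Mrpl12. Mrpl12 had 326 and 214 CPM in activated DNT, against 96.3 and 81.9 CPM in naive DNT (log2 fold change 1.44 ± 0.23, edgeR adjusted p 0.000721). Mrpl11 had 109 and 90.8 CPM, against 39.8 and 39.9 CPM (1.19 ± 0.22, edgeR adjusted p 0.00177). Mrpl10 had 39.3 and 36.5 CPM, against 27.1 and 24.2 CPM (0.43 ± 0.23), which did not pass the test (edgeR adjusted p 0.157). The 3 stalk genes thus had different fitted folds, a difference that was not tested itself.

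At the exit of the tunnel the spread among neighbours was wide. Mrpl45, which holds the large subunit to the inner membrane where new chains are inserted, had 90.6 and 67.6 CPM in activated DNT, against 23.8 and 21.97 CPM in naive DNT (log2 fold change 1.64 ± 0.22, edgeR adjusted p 0.000303). Mrpl47 (uL29m), a protein of the tunnel rim, had 36.1 and 27.2 CPM, against 11.8 and 8.38 CPM (1.52 ± 0.24). Mrpl51, specific to mitochondria and given here for its fold change, had 208 and 146 CPM, against 54.1 and 50.5 CPM, 3.03-fold higher by the fit. All 3 were called with the block. By contrast Mrpl23 and Mrpl24, whose bacterial relatives also line that rim, did not pass the test. Mrpl23 had 173 and 172 CPM in activated DNT, against 167 and 134 CPM in naive DNT (0.07 ± 0.23, edgeR adjusted p 0.826). Mrpl24 had 106 and 125 CPM, against 128 and 121 CPM (−0.24 ± 0.23, edgeR adjusted p 0.421), with overlapping groups. Mrpl23 has a processed pseudogene, Mrpl23-ps1, identical over 498 bases, which is not among the genes counted in all matrices. Mrpl24 shares 463 exon bases with Rrnad1 on the other strand. Whether either bears on the counts of these genes was not tested.

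The 3 relatives of bacterial S18 had different fitted fold changes, a difference that was not tested itself. Mrps18b, described above, had a log2 fold change of 1.86. Mrps18a, which sits in the large subunit, had 137 and 94.3 CPM in activated DNT, against 55.1 and 38.9 CPM in naive DNT (1.16 ± 0.22, edgeR adjusted p 0.00201, and 0.216 without the block). Mrps18c, the direct counterpart of the bacterial protein, had 131 and 118 CPM, against 63.5 and 55.1 CPM (0.94 ± 0.22, edgeR adjusted p 0.00668, and 0.243 without the block). The activated levels of all 3 genes were alike, at 94.3 to 137 CPM, while naive cells held less Mrps18b than Mrps18c in both replicates. A 3′ library counts 1 end per message, so these CPM levels were not divided by gene length. Mrps18b has a processed pseudogene, Gm13552, identical over 212 bases. Mrps12, whose protein lies at the decoding centre, had 172 and 109 CPM, against 64.2 and 58.5 CPM (1.02 ± 0.23, edgeR adjusted p 0.00532). Mrps21 had 262 and 186 CPM, against 129 and 87.0 CPM (0.92 ± 0.22, edgeR adjusted p 0.00767).

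**Figure D3:**
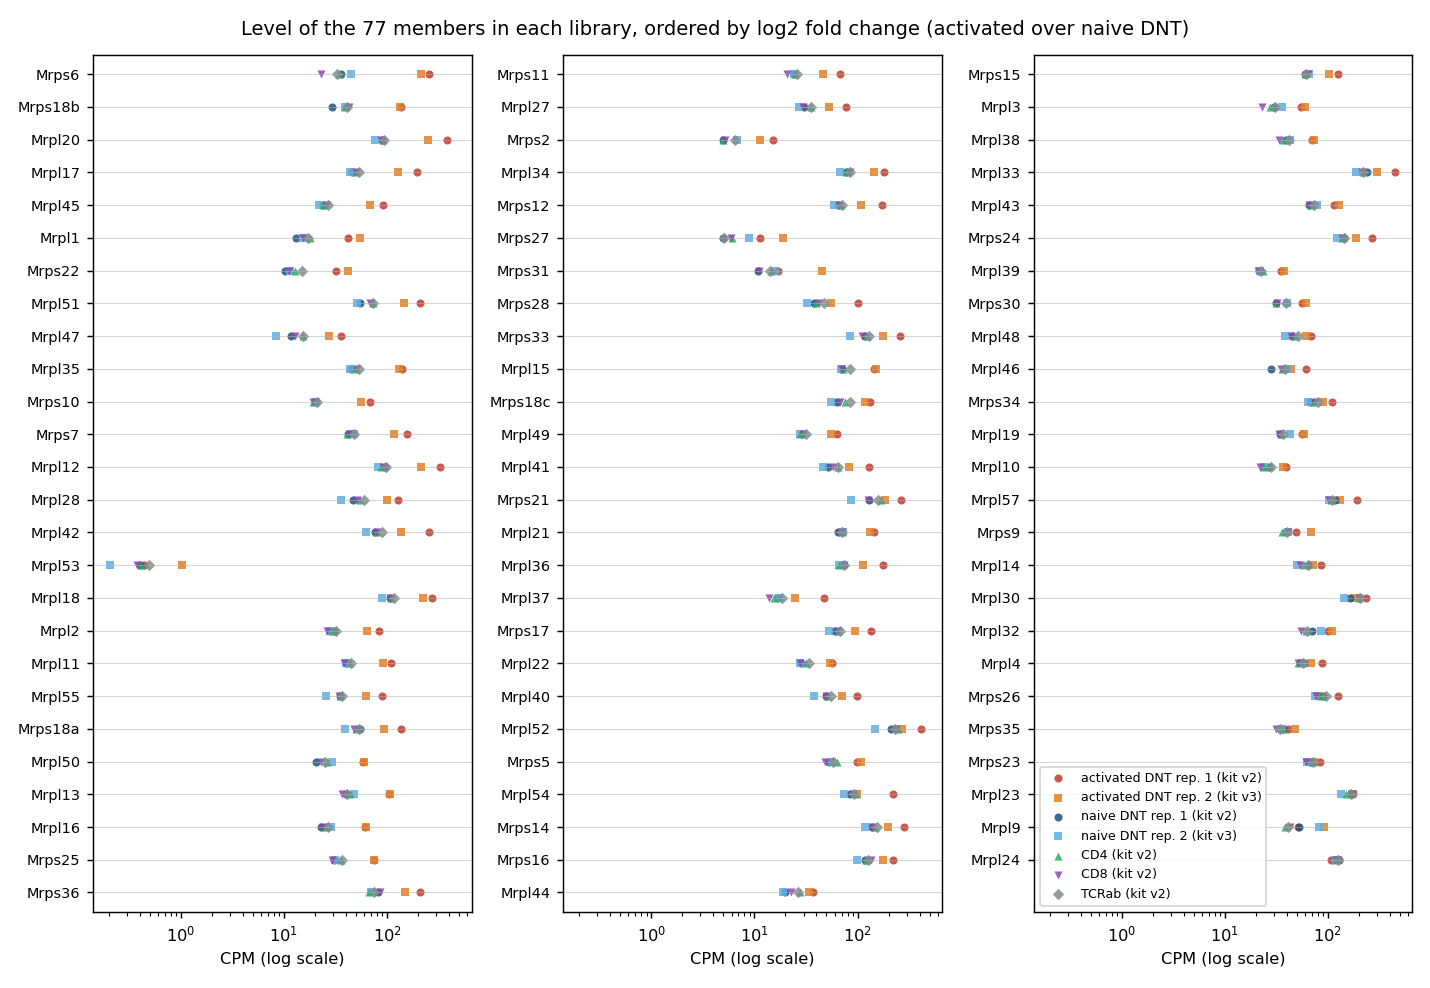
CPM of all 77 genes on a log axis, with 1 symbol per library, ordered down the columns by log2 fold change in activated over naive DNT. Mrps6 and Mrps18b stand well above the unstimulated libraries, while the points of Mrpl24, Mrpl23 and Mrpl9 overlap.

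The 5 genes with the highest levels were not among the 10 with the largest change. Mrpl20, though, ranked 8 by level and 3 by fold change. At the top by mean CPM over the 7 libraries stood Mrpl33, Mrpl52, Mrpl30, Mrps14 and Mrpl23. Mrpl33 had 449 and 299 CPM in activated DNT, against 237 and 186 CPM in naive DNT (log2 fold change 0.67 ± 0.22, edgeR adjusted p 0.0336). Mrpl52, a mitochondrion-specific protein, had 416 and 272 CPM, against 212 and 147 CPM (0.79 ± 0.22, edgeR adjusted p 0.0155). Mrps14 had 284 and 196 CPM, against 138 and 117 CPM (0.75 ± 0.22, edgeR adjusted p 0.0207). These 3 passed with the block and not without it. Mrpl30 had 232 and 183 CPM, against 162 and 142 CPM (0.30 ± 0.22), and did not pass (edgeR adjusted p 0.299). At the low end, Mrps27 had 11.4 and 19.1 CPM in activated DNT, against 4.93 and 8.92 CPM in naive DNT (1.02 ± 0.28, edgeR adjusted p 0.0159). Mrps2 had 15.2 and 11.4 CPM, against 4.98 and 6.77 CPM (1.03 ± 0.32, edgeR adjusted p 0.0243). Mrpl53 gave at most 1.03 CPM in any library and carries no information on direction (1.21 ± 0.76, edgeR adjusted p 0.234). The 10 highest genes supplied 31.6% and 28.2% of the ribosome's UMIs in activated DNT and 33.6% and 29.8% in naive DNT.

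The 20 genes that did not pass the block test had log2 fold changes of −0.24 to 1.21, and 18 of them were above 0. Mrpl9 (bL9m) had 51.2 and 91.4 CPM in activated DNT, against 52.2 and 81.6 CPM in naive DNT (−0.07 ± 0.22, edgeR adjusted p 0.835). Here the kit v3 library was the higher one in both groups, and the groups overlapped. Mrps23 had 84.6 and 72.9 CPM, against 67.5 and 62.4 CPM (0.14 ± 0.21, edgeR adjusted p 0.636). Mrps35 had 41.1 and 47.9 CPM, against 36.6 and 35.6 CPM (0.16 ± 0.23, edgeR adjusted p 0.599). Both are mitochondrion-specific small subunit genes whose activated libraries lay above the naive ones by less than the test could call. Mrpl32, whose protein is trimmed by the m-AAA protease of the inner membrane, as known from yeast and mouse, had 99.5 and 110 CPM, against 69.6 and 85.1 CPM (0.30 ± 0.22, edgeR adjusted p 0.294).

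The order of the genes by CPM was stable. Spearman's rho over the 77 genes was 0.94 between the activated libraries, 0.96 between the naive ones, 0.85 between activated and naive within kit v2 and 0.87 within kit v3, given as a description since genes are not independent. Between naive replicates 2 and 1 none of the 77 was 2-fold apart, against 27.02% of all genes tested. Between activated replicates 2 were, against 23.0%. They were Mrpl54, at 223 CPM in replicate 1 and 99.6 CPM in replicate 2, and Mrps31, at 17.1 CPM in replicate 1 and 45.1 CPM in replicate 2, and the replicates also differ in kit. Over all 77 the median log2 ratio of replicate 2 to replicate 1 was −0.29 in activated and −0.09 in naive DNT. The activated kit v3 library thus held the lower share of the pair, and its fold over naive was the smaller one.

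Within each activated library the share differed between cells. Cells were thinned to 1500 UMIs and divided into 3 equal parts by their original UMI count, a split chosen after the values were seen and given without a test. In activated replicate 1 the 77 genes gave 7240, 9629 and 10582 CPM in the lowest, middle and highest part. Activated replicate 2 gave 5039, 5818 and 8433 CPM. Naive DNT cells gave 4706, 4467 and 4666 CPM in replicate 1 and 4039, 4127 and 4253 CPM in replicate 2, and the other 3 libraries moved as little. Even the lowest part of each activated library lay above the highest part of the naive library of its kit. Per 1500 UMIs, the mean cell held 13.7 and 9.64 UMIs of the 77 genes in activated DNT, against 6.92 and 6.21 in naive DNT. The middle 80% of cells ran between 8 and 20 and between 4 and 16 in the activated libraries, and between 4 and 11 and between 3 and 10 in the naive ones, so single cells of the groups overlapped.

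Cells with signs of division held more of these messages in all 7 libraries. A list of 12 mitosis genes summed to 484 and 763 CPM in activated DNT, against 31.1 and 67.0 CPM in naive DNT, and all 12 were higher in both fits. In activated replicate 1 the 77 genes gave 10786 CPM in 224 thinned cells with at least 2 mitosis UMIs, against 8727 CPM in 1344 cells with none. The ratio was 1.24 (95% exact interval 1.19 to 1.28, for counting error only). In activated replicate 2 the values were 9122 CPM in 120 cells, against 6148 CPM in 1237 cells (1.48, interval 1.41 to 1.56). In the unstimulated libraries such cells were few, between 8 in naive replicate 1 and 34 in naive replicate 2, with ratios between 1.32 and 1.603. Thinned cells with no mitosis UMI gave 8727 and 6148 CPM in the activated libraries, against 4608 and 4125 CPM in the naive ones. The fit on cells without any mitosis UMI used a smaller set, defined before thinning, with 678 and 954 activated cells. In that set the sums were 8572 and 6318 CPM in activated DNT, against 4595 and 4158 CPM in naive DNT. In the highest part of the activated cells by UMI count 29.6% and 23.4% had at least 2 mitosis UMIs, against 1.34% and 0% in the lowest part, so depth and division moved together and the part of each in the result was not tested.

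**Figure D4:**
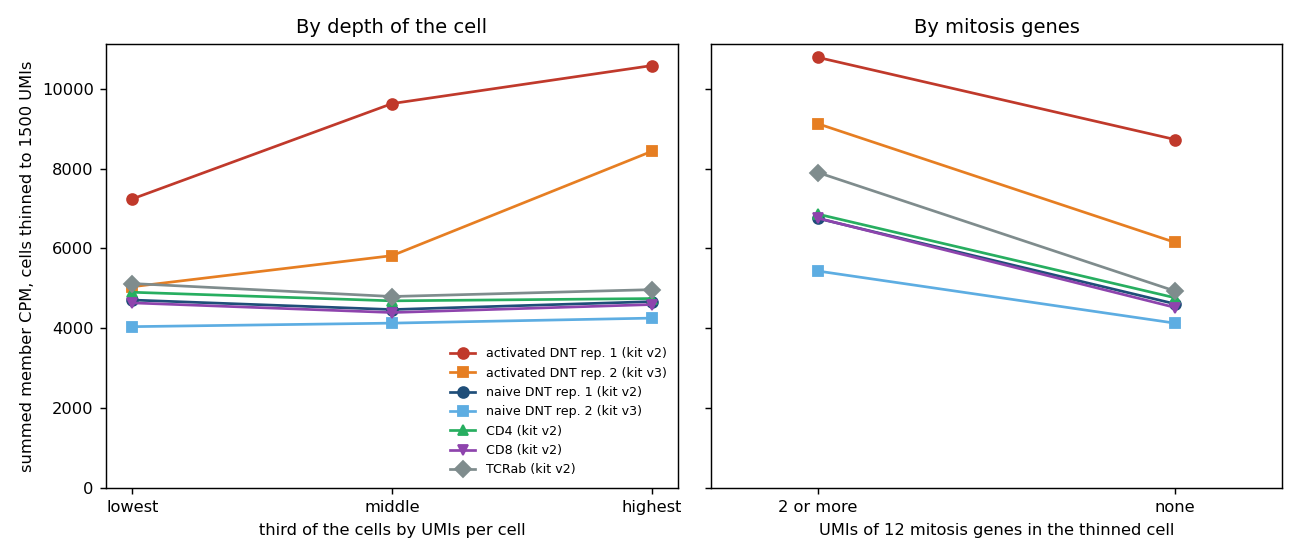
Left, CPM of the 77 genes in thinned cells divided by their original UMI count; right, CPM in thinned cells with at least 2 mitosis UMIs and in cells with none, as 1 point and line per library. The activated libraries are higher in deeper cells, the unstimulated ones stay between 4039 and 5119 CPM, and the mitosis cells are higher in all 7 libraries.

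Other genes of mitochondrial translation moved less uniformly, and no gene of the mitochondrial lists below was called without the block. Of 6 ribosomal proteins that have other symbols, 4 rose (median log2 fold change 0.83). Chchd1 (mS37) had 216 and 164 CPM in activated DNT, against 79.3 and 69.7 CPM in naive DNT (1.20 ± 0.22, edgeR adjusted p 0.00181), and Gadd45gip1, Aurkaip1 and Ptcd3 rose by 0.997, 0.82 and 0.85 on the log2 scale. Dap3 (0.38) and Mrpl58 (−0.17) did not pass. Of 24 genes for assembly and ribosomal RNA modification, 4 rose and 2 fell (median 0.35). Of all genes tested, 19.9% rose and 19.8% fell with the block. Fastkd2, which binds the large subunit's RNA, had 17.2 and 19.9 CPM, against 5.27 and 9.07 CPM (1.27 ± 0.28, edgeR adjusted p 0.00488), and Rcc1l, Malsu1 and Mrm3 rose by 0.98, 0.94 and 0.89, while Mrm1 and Mettl17 fell by 0.94 and 0.90. Of 18 translation factors and message-binding proteins, 6 rose and none fell (median 0.58). Slirp, a partner of mitochondrial messages, had 163 and 124 CPM, against 68.8 and 31.7 CPM (1.47 ± 0.26, edgeR adjusted p 0.00153). Taco1, a translational activator of cytochrome oxidase subunit I, rose by 1.39, and Gatc, a subunit of the amidotransferase that completes glutaminyl-tRNA, by 1.34. Mtrf1, a release factor, and Tsfm, an elongation factor, rose by 1.26 and 0.77.

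For mitochondrial aminoacyl-tRNA synthetases, which charge transfer RNA, 1 of 17 rose (Yars2, 0.90) and the median was −0.03. Next by p, Rars2 (0.66), Lars2 (−0.82) and Mars2 (0.67) did not pass. For mitochondrial DNA replication and transcription 1 of 11 rose (Ssbp1, 0.85; median 0.03), while Polg2 (−0.89), Polg (−0.65) and Mterf1a (−0.9989) did not pass. The shares that rose among assembly genes (16.7%), synthetases (5.88%) and genes for mitochondrial DNA (9.09%) were no higher than that of all genes tested (19.9%). The 13 messages encoded in mitochondrial DNA went the other way, with 10 called lower and none higher (median −0.88). Of all genes tested, 19.8% were lower in that fit. The 13 messages summed to 19970 and 18886 CPM in activated DNT, against 25787 and 49698 CPM in naive DNT, and the kit v3 naive library stood apart. mt-Co1, a subunit of cytochrome oxidase, had 2680.3 and 3799.8 CPM, against 4055 and 8507 CPM (−1.02 ± 0.20, edgeR adjusted p 0.00248, and 0.278 without the block). mt-Atp8, a subunit of the ATP synthase, had 12.9 and 62.4 CPM, against 43.3 and 122 CPM (−1.48 ± 0.26, edgeR adjusted p 0.00162, and 0.240 without the block), with overlapping groups. mt-Nd2 fell by 1.23 and mt-Co3 by 1.09 on the log2 scale, without overlap. The groups also overlapped for mt-Nd1, mt-Nd4l, mt-Nd5, mt-Nd6, mt-Co2 and mt-Cytb. Among lists of other machinery, 37 of 79 nuclear genes of oxidative phosphorylation rose and 2 fell (median 0.50). Of 80 cytosolic ribosomal protein genes, 4 rose and 14 fell with the block (median −0.23), and 2 and 0 without it. With the block, neither share was above that of all genes tested (19.9% higher and 19.8% lower). The counts of both lists stand beside the 57 of 77 for the mitochondrial ribosome, and the lists were not tested against each other.

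Among unstimulated cells the 77 genes differed little. No test was run, since CD4, CD8 and TCRab have 1 library each, and a rule of size was used: both naive libraries had to differ from the partner by 2-fold or more, in 1 direction, and the higher libraries had to reach 20 CPM. In naive DNT against CD4 none of 69 eligible genes was higher and none lower, where 5.51% and 1.34% of all eligible genes were. Against CD8 the count was also 0 of 69, with backgrounds of 4.87% higher and 0.532% lower, and against TCRab 0 of 69, with 4.16% and 1.18%. CD4 against CD8 gave 0 of 68, with 1.45% and 1.55%. The median log2 ratio of the 77 genes was −0.10 in naive DNT over CD4 (0.32 over all genes), −0.05 over CD8 (0.43) and −0.16 over TCRab (0.26). Naive DNT had the lower mean in 51, 45 and 65 of the 77 in the same order of partners. With naive replicate 1 alone, within kit v2, the medians were −0.04 (0.06 over all genes), −0.01 (0.17) and −0.13 (0.005). With naive replicate 2 alone, across kits, they were −0.15 (0.59), −0.07 (0.70) and −0.24 (0.51). The distance from the median of all genes was thus smaller within kit v2. Across the 4 unstimulated kit v2 libraries the highest value was a median of 1.19 times the lowest, and all 77 genes stayed under 2-fold. With the kit v3 naive library added the median became 1.29, and 75 stayed under 2-fold.

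By mean log2 ratio over both naive libraries, Mrpl9 stood highest against CD4 (0.76) and TCRab (0.66), and Mrps6 against CD8 (0.78). Mrpl9 had 52.2 and 81.6 CPM in naive DNT, against 38.3 CPM in CD4, 42.4 CPM in CD8 and 41.2 CPM in TCRab cells. The ratios to CD4 were 1.36 (95% exact interval 1.24 to 1.49998) in kit v2 and 2.13 (1.98 to 2.30) in kit v3, the larger ratio being the one across kits. Mrps6 had 35.7 and 44.9 CPM in naive DNT, against 23.1 CPM in CD8, ratios of 1.55 (1.38 to 1.74) and 1.94 (1.77 to 2.13). Against CD4 the Mrps6 ratio within kit v2 was 1.06 (0.947 to 1.18), which counting error alone could give, and with the kit v3 naive library it was 1.33 (1.22 to 1.44). Mrps6 was also 1.46 times higher in CD4 than in CD8 (1.31 to 1.64). On the other side, Mrps21 had 129 and 87.0 CPM in naive DNT, against 168 CPM in CD4, 126 CPM in CD8 and 159 CPM in TCRab cells. Mrpl47 had 11.8 and 8.38 CPM in naive DNT, against 15.4, 12.7 and 15.4 CPM. Mrpl51 had 54.1 and 50.5 CPM, against 72.5, 68.3 and 73.9 CPM, and was lower in naive DNT in both kits. The activated-to-naive folds given above for Mrpl47 and Mrpl51 use the same naive libraries.

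**Figure D5:**
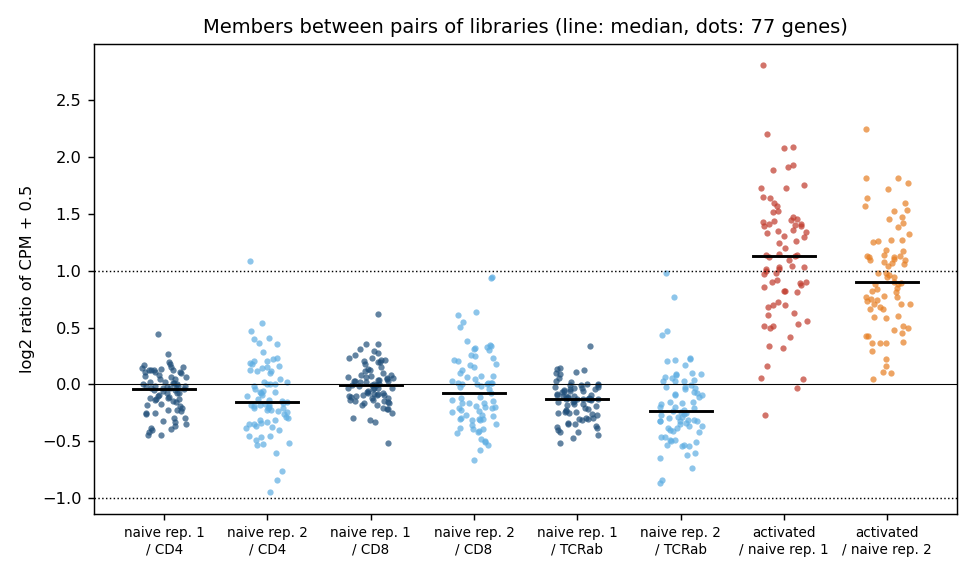
Log2 ratio of CPM (0.5 added) for each of the 77 genes between pairs of libraries: each naive DNT library over CD4, CD8 and TCRab, and activated over naive DNT within each kit, with the median as a bar and dotted lines at 2-fold. The activated ratios are centred near 1 on the log2 scale, and the ratios of naive DNT to the other unstimulated libraries have medians between −0.24 and −0.01.

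How reads were assigned may bear on single genes and was not tested. The exons of 32 of the 77 genes overlap those of another gene, 8 on the same strand, and 17 genes have a copy elsewhere that is at least 95% identical over 150 bases or more. For 25 genes the overlapping gene is itself counted, with 4 of them on the same strand, and 2 genes have a counted copy. Among the 35 genes with a counted overlap or any such copy, 24 rose with the block (median log2 fold change 0.92). Among the 42 with neither, 33 rose (median 0.95), where 19.9% of all genes tested were higher. Most of the 35 have only an overlap on the other strand or an uncounted copy, so the split cannot show how reads were assigned.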

How the data were processed

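The deposited values are UMI counts, 1 whole number for each gene in each cell barcode, with no normalization. Per the submitters' processing notes, Cell Ranger 2.1.0 and 3.0.1 were used with mm10 (GRCm38), and version 3.0.2 is named in the file headers of kit v3. The kit v2 libraries list 27998 genes and the kit v3 libraries 31053, and the 27514 gene IDs in both were used. Of each library's UMIs, 0.400% to 0.594% lay in other genes.

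Cells needed 200 detected genes and no more than 10% of UMIs from mitochondrial genes, and no doublet caller was run. UMIs were summed per library and scaled to 1000000 over the shared genes (CPM). Genes passing filterByExpr were tested in the 4 DNT libraries with edgeR 4.0.16 (TMM scaling, robust quasi-likelihood F test, two-sided, R 4.3.3) with the replicate number as a block, because the labels give the kit of each number, and Benjamini-Hochberg adjustment over all genes tested at 0.05. The p-values rest on these libraries alone, and with 1 residual degree of freedom in the block fit most of the spread is estimated from other genes. The fit without the block, DESeq2 1.42.0, other scalings, no filter, all barcodes, thinned cells (1500 UMIs), subsets of cells and left-out libraries were alternatives. Exact conditional 95% intervals, which cover counting error alone, accompany ratios between single libraries, and list medians of ratios used CPM with 0.5 added.

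The 77 genes and all lists were chosen with earlier results of these data known. Genes named are those called in both fits, the 10 highest and 5 lowest fold changes, the 5 highest and 3 lowest levels, the Mrps18 genes, the stalk genes, Mrpl45, Mrps12, and the 3 highest and 3 lowest ratios against each unstimulated group; Mrpl54, Mrps31 and Slc5a3 were chosen after their values were seen. From each list of mitochondrial translation up to 4 genes with the smallest p were named, and Dap3, Mrpl58, Mrm1, Mettl17 and Mtrf1 were added after their values were seen. Coordinates are from GENCODE vM21 and promoters from RefSeq GRCm38.p6; shared exons and copies were found in the same annotation. Tables were made with pandas 2.3.3, SciPy 1.17.1 and NumPy 2.4.6 under Python 3.11.15, and plots with matplotlib 3.10.9.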

Additional observations from a re-analysis of the deposited data

How the results depend on the processing

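With the replicate block as main fit, 4894 genes in all, 57 of the 77 mitochondrial ribosomal protein genes (all higher) and 22 of the 31 named ones were called. Without the replicate block these counts were 1280, 4 and 4. The 31 were named partly by their calls and fold changes, so their counts are not independent of the fit. RLE scaling, upper-quartile scaling, library totals, DESeq2, no low-count filter and all barcodes gave 54 to 60 of the 77. In these fits 15.0% to 21.7% of all genes tested were higher. Every setting tried gave 0 of the 77 lower. Library totals raised the median log2 change of all genes to 0.09, and that of the 77 genes to 1.06. Thinning to 1500 UMIs gave 2512 genes, 32 of the 77 and a median of 0.69. Cells without other-lineage UMIs gave 1661, 16, 11 named and 0.63, and cells without mitosis UMIs 2190, 28 and 0.71. The summed fold of 2.02 became 1.76, 1.66 and 1.68 in these 3 sets of cells. These sets also hold fewer UMIs or cells, and the cause of the change was not tested.

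With 1 library left out and no block, the lone library was assumed to vary like the others. All genes called numbered 547 without naive replicate 1, then 773 without the other naive library, 1190 when activated replicate 1 was left out and 2074 for activated replicate 2. The count of the 77 was 0, 0, 1 and 18 in that order, the named ones ranged from 0 to 11, and the median was 1.32, 0.62, 0.51 and 1.25.

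For unstimulated cells, 1 gene (Mrpl9) passed the size rule against CD4 when only naive replicate 2 was used. With CPM counted without mitochondrial and cytosolic ribosomal protein genes, the median log2 ratios of the 77 were −0.33 over CD4, −0.41 over CD8 and −0.37 over TCRab. In thinned cells the median over CD8 was 0.0137. Depth limits Mrpl53 most, with at most 1.03 CPM.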

Other observations

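Mrps36, which is now placed with the 2-oxoglutarate dehydrogenase complex and not with the ribosome, had 207 and 148 CPM in activated DNT, against 81.1 and 69.8 CPM in naive DNT (log2 fold change 1.08 ± 0.22, edgeR adjusted p 0.00332, and 0.212 without the block). Its values were within the range of the ribosomal genes. In CD4 cells Mrps36 had 67.4 CPM, against 86.3 CPM in CD8 cells, the lowest CD4 over CD8 ratio of the 77 genes, at −0.35 on the log2 scale. It was named after its values were seen.

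The division of UMIs between the 2 kinds of ribosome differed between the groups. The UMIs of the 77 genes were 0.0249 and 0.0250 of those of the cytosolic ribosomal protein genes in activated DNT, against 0.0106 and 0.0126 in naive DNT, 0.00992 in CD4, 0.00887 in CD8 and 0.0107 in TCRab cells. The activated libraries were alike in this ratio although their kits and depths differed.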
